A study of Mus musculus with 4 samples.

Results

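The large subunit of the cytosolic ribosome, 60S, is built from rRNA and a set of ribosomal proteins, and 43 of the genes for these proteins were described here, out of 12390 genes in the deposited table. They are the listed protein-coding 60S genes, with pseudogenes excluded and with Rpl5 and Rpl11 left out. Mouse hematopoietic stem cells were sorted from bone marrow (Lin-, Sca-1+, c-Kit+, CD48-, CD150+) and their RNA sequenced, with about 5000 cells per library and a Smart-Seq kit for low inputs. Both groups carry floxed Ddx21 alleles, written Ddx211fl/fl in the series' design. The 2 control libraries come from mice with these alleles alone, labelled WT, and the 2 knockout libraries, labelled KO, from mice that also carry CAG-CreERT2. CAG is a broadly active promoter and CreERT2 a Cre recombinase switched on by tamoxifen, so deletion need not be limited to blood cells. The age of the mice, any tamoxifen schedule, pooling of animals and whether the libraries came from separate animals are not stated in what was used here, so p-values measure the spread between these libraries, which may be technical.

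Ribosomal proteins are made in the cytoplasm, imported into the nucleus and assembled with rRNA in the nucleolus, where DDX21, a DEAD box RNA helicase, takes part in rRNA synthesis and processing. Their mRNAs are known as TOP mRNAs: they begin with a terminal oligopyrimidine tract, a run of C and U at the cap, through which mTORC1 and the binding protein LARP1 control their translation as a group. Ribosomal proteins are needed in matched amounts, and variants in several of their genes cause Diamond-Blackfan anaemia in humans.

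The tract lies where the transcript starts, so the DNA around the annotated start was searched for runs of pyrimidines. RefSeq promoter sequences on GRCm38.p6 were matched by symbol for 32 of the 43 genes, with 38 starts in all. The window printed here runs from 10 bases before the annotated start to 20 bases from it, and capitals mark the longest run of C and T where it reaches 10 bases. The first 5 windows are from members with long runs, Rpl13a is a member of low listed level, and Rpl22 and Rpl24 are members without such a run.
Rpl27a, chr7:109519185-109519214, plus strand: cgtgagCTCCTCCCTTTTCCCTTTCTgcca
Rpl35, chr2:39005112-39005141, minus strand: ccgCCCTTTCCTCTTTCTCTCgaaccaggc
Rpl7a, chr2:26910797-26910826, plus strand: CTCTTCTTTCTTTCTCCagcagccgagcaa
Rpl15, chr14:18270967-18270996, minus strand: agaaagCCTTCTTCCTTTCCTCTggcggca
Rpl14, chr9:120571507-120571536, plus strand: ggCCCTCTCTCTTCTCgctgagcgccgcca
Rpl13a, chr7:45128726-45128755, minus strand: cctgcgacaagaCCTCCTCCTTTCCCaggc
Rpl22, chr4:152325716-152325745, plus strand: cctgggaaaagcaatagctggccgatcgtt
Rpl24, chr16:55966265-55966294, plus strand: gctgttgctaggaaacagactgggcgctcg

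A run of at least 10 pyrimidines, read on the transcript's strand, was found at 13 of the 38 starts (34.2%), against 6 of 29 starts of 40S genes (20.7%) and 4.77% of all 32851 starts in the RefSeq table. The motif CCGGAAG was read on both strands over 250 bases before and 50 bases after the start. It was present at 34.2% of 60S starts, 37.9% of 40S starts and 8.86% of all starts. TATAAA, read the same way, was present at 10.5% of 60S starts, 6.9% of 40S starts and 13.6% of all starts. A missing run says only that the letters are not in this window of the annotated start. A run found may lie anywhere in the window, and was not shown to begin at the cap. The 13 genes with a run had a median log2 fold change of -0.06, and the 19 matched genes without it one of -0.09, a difference smaller than the SE of any single member.

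These genes were among the most abundant of the table. Values are RPKM (reads scaled by transcript length and library size). Of the 43 genes, 40 had a mean of at least 100 RPKM, 14 reached 1000 RPKM and 37 were among the 500 most abundant listed genes. Rplp0, the protein that anchors the lateral stalk, was the most abundant, with 5085 and 4626 RPKM in control and 4864 and 3969 RPKM in knockout. It ranked 16 of 12390 by mean level. Rpl4, a protein that lines the exit tunnel, followed at 3084 and 2978 RPKM in control and 3017 and 2431 RPKM in knockout, and Rplp1, an acidic stalk protein, at 2769 and 2576 RPKM and at 2911 and 2341 RPKM. In each of these genes knockout replicate 2 was the lowest library and knockout replicate 1 lay within or above the controls.

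At the lower end stood Rpl22 with a mean of 82.3 RPKM, Rpl13a with 19.3 RPKM and Rpl24 with 1.65 RPKM, which ranked 10204 of 12390. The range over the libraries overlapped for 34 of the 42 neighbours in the order. These ranges include shifts that members of a library share, so an overlap does not show that adjacent ranks are alike. Rpl4 lay above Rplp1 in every library although their ranges overlapped. Over all pairs of members, 878 of 903 had the same order in every library. The deposited values divide by the length of the longest annotated transcript, which for these genes was from 1.22 to 8.66 times the coding length. Per kilobase of the longest annotated coding sequence the order changed (Spearman rho 0.86 across the 43 genes with the RPKM order). Rpl41, whose longest annotated coding sequence has only 46 codons, came first at 12844 (reads per coding kilobase, scaled to library size). That value depends on the annotated length, which need not be that of the main protein. Rpl18 moved from rank 28 to rank 11. Rpl13a and Rpl24 stayed lowest on that scale too, with 33.4 and 2.38.

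**Figure D1:**
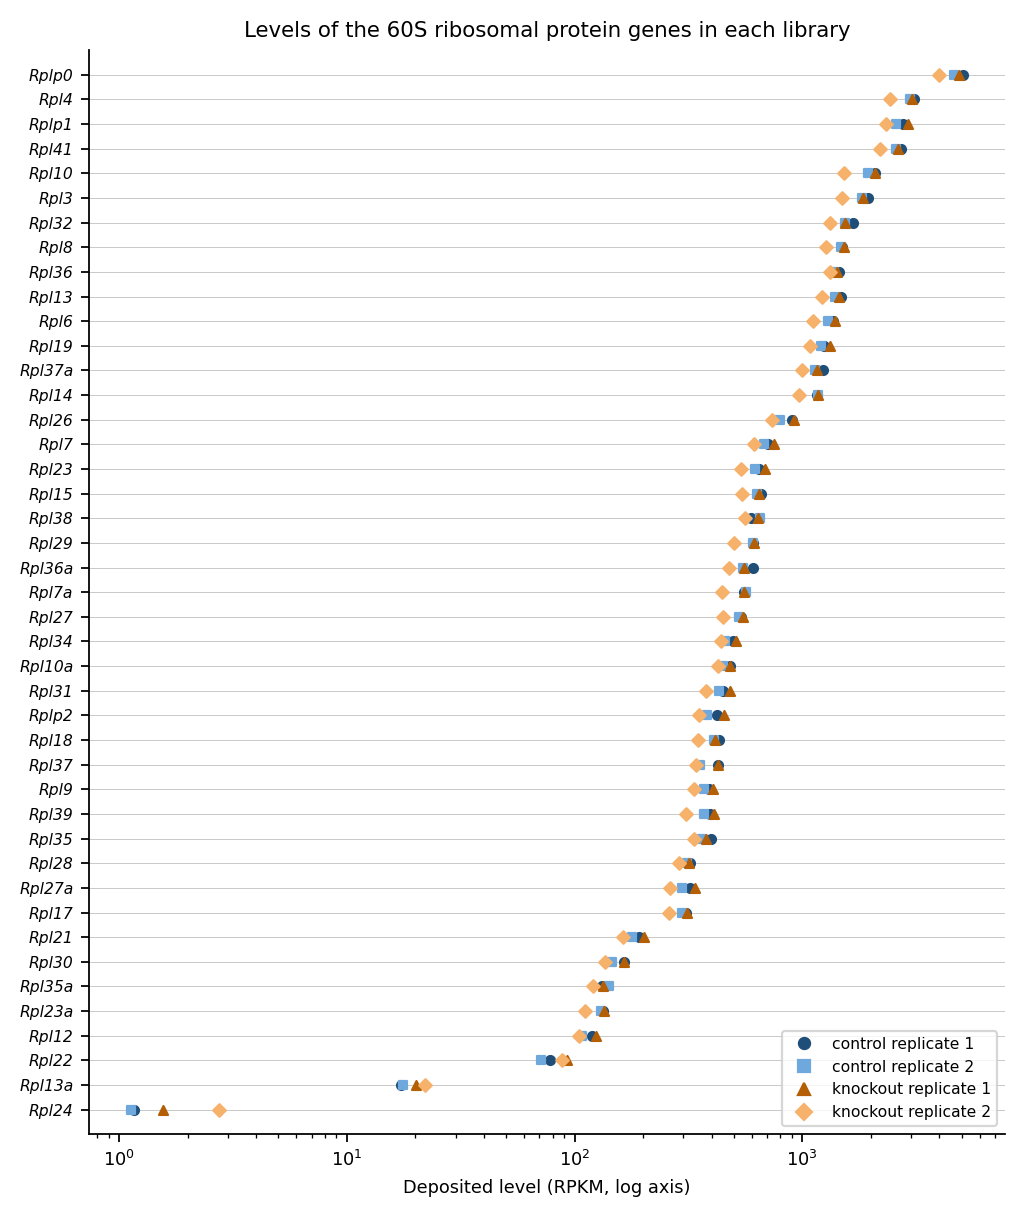
Deposited level of each of the 43 genes on a log axis in RPKM, with a point for each of the 4 libraries, ordered by mean. Levels run from 5085 RPKM for Rplp0 to 1.12 RPKM for Rpl24, and knockout replicate 2 is the lowest point in 40 genes.

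The comparison of knockout with control asks whether the RNA of these genes differs in cells sorted from mice with the deleter. Fold changes are log2, knockout minus control, on log2(RPKM + 1), from limma fitted to the 11742 genes that average 1 RPKM or more, and a Benjamini-Hochberg adjusted p under 0.05 was called. None of the 43 genes was called by limma: 0 were higher and 0 lower, and 0 had an unadjusted p under 0.05. Over all tested genes, 1908 of 11742 had such a p. Voom on recovered reads also called 0 members, and 0.375% of all genes. Over all tested genes 4.19% were called, 3.33% higher and 0.86% lower. The median log2 fold change of the 43 genes was -0.09, with quartiles of -0.13 and -0.04 and 39 negative values, while the median of all tested genes was 0.31. Among 601 other genes of at least 100 RPKM the median was also -0.09, with 65.6% negative values, 22 called higher and 56 lower.

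The negative median rested on knockout replicate 2. Against the control mean the median of the 43 genes was 0.04 in knockout replicate 1 and -0.22 in knockout replicate 2, and 0.04 and -0.04 in control replicates 1 and 2. Knockout replicate 2 had the lowest value for 40 of the 43 genes, and for 10.1% of all tested genes. It was also lowest for 90.9% of the 40S genes and for 55.7% of the 601 other genes of at least 100 RPKM. Knockout replicate 1 lay between the controls for 18 genes, above both for 24 and below both for 1. Without knockout replicate 2 the median turned to 0.04. Without knockout replicate 1 it was -0.22, and 1 gene was called higher and 4 lower, against 54.3% and 4.48% of all tested genes in that setting. Groups did not overlap for 4 members. Rpl22, Rpl24 and Rpl13a were higher in both knockout libraries, against 55.5% of tested genes. Rpl7a was lower in both, against 7.38%. Of the 601 other genes of at least 100 RPKM, 96 were higher in both knockout libraries and 235 lower in both.

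Scaling moved these values. A TMM-type rescaling moved the median of all genes from 0.31 to 0.01 and that of the 43 genes to -0.45, while quantile normalization gave 0.07 for the 43 genes, so the direction of the group turns with the scaling. Both called 0 of all tested genes (1839 and 1748 had an unadjusted p under 0.05). In bulk RNA fewer cells of a type and less RNA per cell cannot be told apart.

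**Figure D2:**
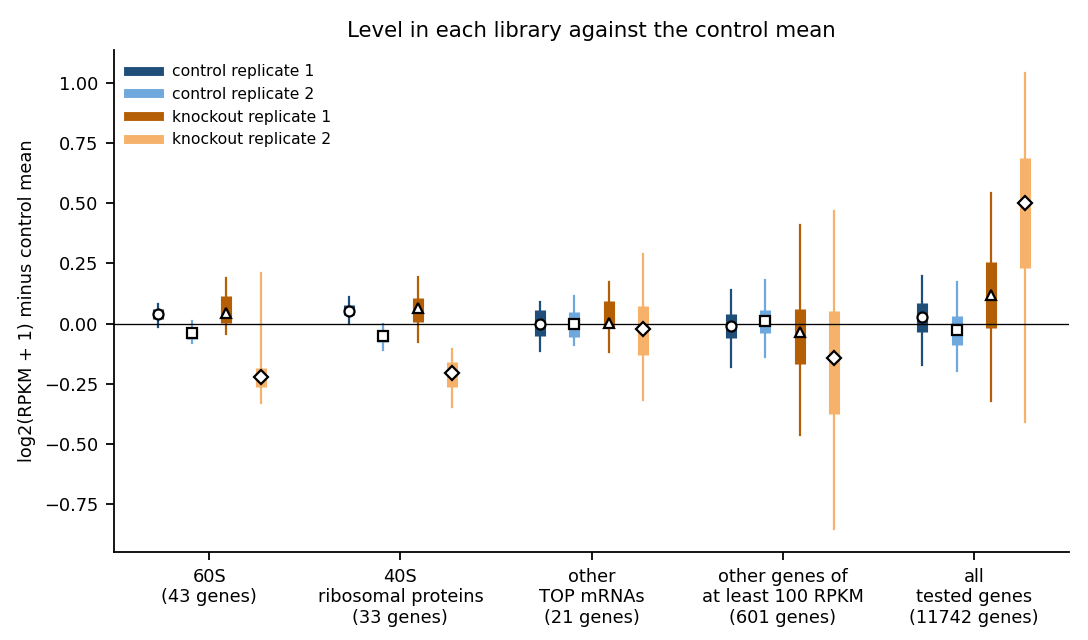
Distribution over genes of log2(RPKM + 1) minus the control mean, for each library and 5 sets of genes: the marker is the median, the bar the quartiles and the line the range from the 5th to the 95th percentile. The 60S and 40S genes form narrow bars, with medians of -0.22 and -0.21 in knockout replicate 2, where the median of all tested genes is 0.50.

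The genes varied within narrow ranges of each other from library to library. Without Rpl24 and Rpl13a, whose values are uncertain for reasons given with them, the ratio of knockout replicate 2 to knockout replicate 1 had a median of 0.827 over 41 genes, and its interquartile range on the log2 scale was 0.08. For the 601 other genes of at least 100 RPKM that range was 0.33. Between the control libraries the interquartile ranges were 0.08 and 0.19. For 32 of the 40S genes, Rps10 left out, it was 0.09 in both ratios. These are descriptions without a test, and members share library, depth and control samples.

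Expressed as a share, the 43 genes held 6.91% and 6.61% of all listed RPKM in control and 7.05% and 6.36% in knockout. The means were 6.76% ± 0.215 (SD, n = 2) and 6.70% ± 0.487 (SD, n = 2), with an exact two-sided permutation p of 1, where 0.333 is the smallest that 2 libraries against 2 allow. The groups overlapped. As a share of recovered reads they held 4.68% and 4.41% in control and 4.64% and 3.83% in knockout.

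The P stalk, a flexible arm on the side of the subunit, recruits and activates the GTPase factors of translation. Rplp0 forms its anchor, Rplp1 and Rplp2 its acidic tips and Rpl12 sits at its base. Rplp0 had the most negative log2 fold change of the stalk, -0.14 (SE 0.18, adjusted p = 0.599 from limma). Rplp2 stood at 423 and 382 RPKM in control and at 453 and 352 RPKM in knockout. Rpl12 stood at 119 and 108 RPKM in control and at 124 and 104 RPKM in knockout, with 0.01 (SE 0.17) as its log2 fold change. The knockout libraries lay on both sides of the controls for Rplp1, Rplp2 and Rpl12. For Rplp0 knockout replicate 1 lay within the controls.

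The catalytic core and the tRNA sites held 3 of the 5 most negative values. Rpl3, next to the peptidyl transferase centre, stood at 1936 and 1827 RPKM in control and at 1852 and 1487 RPKM in knockout. Its log2 fold change of -0.18 (SE 0.17, adjusted p = 0.503 from limma) was the most negative of all members. Rpl10, which is added late in assembly and helps tRNA accommodation, stood at 2081 and 1944 RPKM in control and at 2077 and 1529 RPKM in knockout. Its knockout replicates were 0.44 apart on the log2 scale, one of the 3 widest gaps, and the log2 fold change was -0.17. Rpl36a, at the exit site for tRNA, stood at 609 and 546 RPKM in control and at 556 and 475 RPKM in knockout (log2 fold change -0.17, SE 0.16). Groups overlapped for all 5 genes of this set. Rpl8, also of the catalytic core, and Rpl10a, of the stalk through which spent tRNA leaves, had log2 fold changes of -0.09 and -0.03.

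At the face that joins the 40S subunit, Rpl41 and Rpl23 were the most abundant. Rpl41, a bridge peptide and the shortest member, stood at 2723 and 2582 RPKM in control and at 2625 and 2201 RPKM in knockout. Rpl23 stood at 647 and 622 RPKM in control and at 684 and 540 RPKM in knockout. Their log2 fold changes were -0.14 (SE 0.17) and -0.06 (SE 0.16), with overlapping groups. Rpl30 had -0.05, and Rpl24, also a bridge protein, is described with its copies.

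All 8 genes of the exit tunnel, through which the new peptide leaves, had negative values that were not called, from -0.16 for Rpl4 to -0.04 for Rpl19. Rpl19 stood at 1244 and 1208 RPKM in control and at 1317 and 1076 RPKM in knockout. Rpl39, a short protein deep in the tunnel, stood at 393 and 372 RPKM in control and at 411 and 309 RPKM in knockout, a gap of 0.41 on the log2 scale between the knockout libraries. In both genes knockout replicate 1 was the highest library and knockout replicate 2 the lowest. Rpl23a and Rpl35, which flank the tunnel's opening, had -0.11 and -0.09.

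Genes of other roles gave values of the same size. Among genes altered in Diamond-Blackfan anaemia in humans, Rpl15 stood at 657 and 632 RPKM in control and at 648 and 544 RPKM in knockout, and Rpl27 at 536 and 526 RPKM in control and at 546 and 446 RPKM in knockout. The 4 genes of that set, which holds only genes not placed under another role, lay between -0.14 and -0.11, none called. The 15 other rRNA-binding genes lay between -0.18 for Rpl7a and -0.01 for Rpl34. Rpl7a was the only member lower in both knockout libraries, at 557 and 564 RPKM in control and at 552 and 444 RPKM in knockout (SE 0.16, adjusted p = 0.495 from limma), and the gap between the control library of lower value and knockout replicate 1 was small beside that between the knockout libraries. Rpl32 stood at 1669 and 1534 RPKM in control and at 1539 and 1328 RPKM in knockout. Rpl36 stood at 1451 and 1373 RPKM in control and at 1414 and 1327 RPKM in knockout, and Rpl34 at 498 and 455 RPKM in control and at 510 and 441 RPKM in knockout. Of these 3 genes the groups overlapped.

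**Figure D3:**
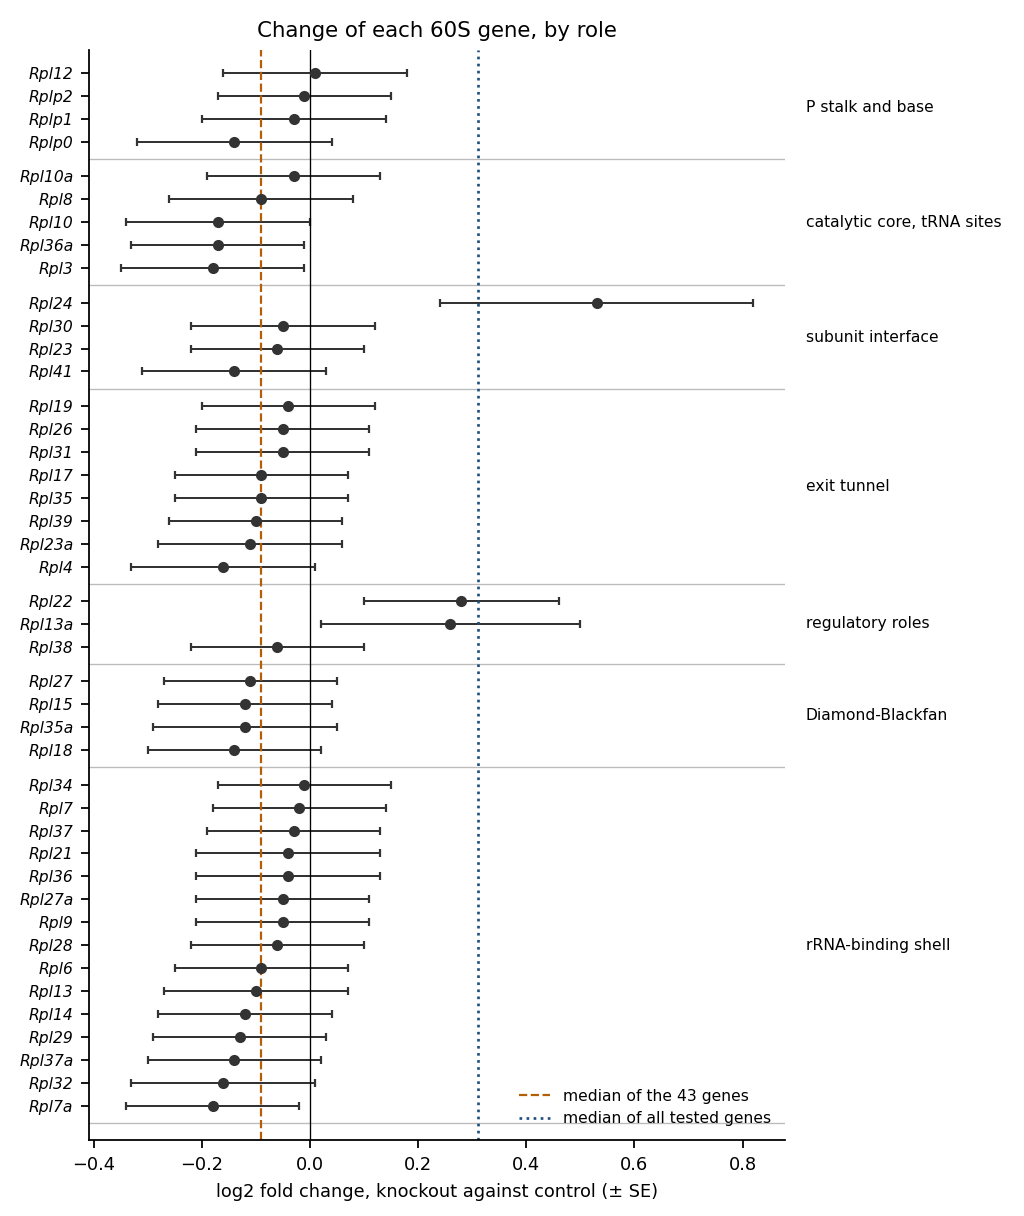
log2 fold change (knockout against control) of the 43 genes with SE bars, grouped by role, with dashed and dotted lines at the median of the 43 genes (-0.09) and of all tested genes (0.31). Rpl24, Rpl22 and Rpl13a lie to the right, at 0.53, 0.28 and 0.26, and the other genes between -0.18 and 0.01.

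The fit limits what a lack of calls can show. Without Rpl24 and Rpl13a the SEs of the members lay between 0.16 and 0.18, and the smallest log2 change called among the 601 other genes of at least 100 RPKM was 0.50 in size. The values of 40 of the 43 genes were under 0.2 in size, below that smallest called change, and the absence of calls does not show equal levels.

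Rpl22 and its paralog Rpl22l1 lay on opposite sides of their control values in both knockout libraries. Rpl22, an RNA-binding protein needed for T cell development in mice, stood at 77.6 and 70.8 RPKM in control and at 92.6 and 88.1 RPKM in knockout. Both knockout libraries lay above both controls, and the log2 fold change was 0.28 (SE 0.18, adjusted p = 0.396 from limma). Rpl22l1, whose protein can take the place of Rpl22 in the ribosome and whose RNA is repressed by Rpl22 in mice, stood at 43.7 and 41.4 RPKM in control and at 37.2 and 29.6 RPKM in knockout, with both knockout libraries below both controls (-0.35, SE 0.21, adjusted p = 0.365 from limma). Neither was called. Rpl22l1 stood at -0.70 after TMM-type rescaling, -0.57 with quantile normalization and -0.71 with voom. It stood at -0.19 without knockout replicate 2 and at -0.51 without knockout replicate 1. The sign of Rpl22 turns with scaling, to -0.08 after TMM-type rescaling and -0.05 with voom.

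Because both genes are read in the same library, a single scaling factor per library leaves their ratio as it is, which quantile normalization need not (0.23 and -0.57 for the log2 fold changes of Rpl22 and Rpl22l1). Rpl22 over Rpl22l1 was 1.78 and 1.71 in control and 2.49 and 2.97 in knockout. The mean was 1.74 ± 0.0471 (SD, n = 2) in control and 2.73 ± 0.342 (SD, n = 2) in knockout, and the log2 ratio differed by 0.64, or 1.56-fold. The groups did not overlap, and the exact two-sided permutation p was 0.333, the smallest this design allows. The ratio was formed after the values of both genes were seen.

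Scaling each library to the geometric mean of the 41 members gives each gene's level within the set. On this scale, chosen after the values were seen, Rpl22 was 12.2% and 11.7% of that mean in control and 14.4% and 16.5% in knockout, and Rpl22l1 6.86% in both control libraries and 5.79% and 5.55% in knockout. Rpl4 was 484% and 494% in control and 469% and 455% in knockout, and Rpl3 304% and 303% in control and 288% and 278% in knockout. Of the 43 genes 10 were higher in both knockout libraries, against 49.6% of tested genes, and 13 lower, against 5.83%, a count that the scaling to the members themselves shapes. In the limma fit on this scale 0 members were called (829 of all tested genes had an unadjusted p under 0.05), and 1.56% of all tested genes were. Without knockout replicate 1, where 72.5% of all tested genes were called higher, 3 members were, namely Rpl22, Rpl24 and Rpl13a, with Rpl22 at 0.46 (adjusted p = 0.0196 from limma). With all libraries the relative log2 fold change of Rpl22 was 0.36 (SE 0.26, adjusted p = 0.639 from limma). The median of all tested genes on this scale was 0.38, so Rpl22 lay near that median. Rpl22l1 had -0.27 (SE 0.33, adjusted p = 0.654 from limma). Apart from Rpl22, Rpl24 and Rpl13a, the members lay between -0.10 and 0.09. Rpl38, needed for Hox mRNA translation in mice, stood at 597 and 654 RPKM in control and at 638 and 561 RPKM in knockout, and at 0.02 on the relative scale.

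**Figure D4:**
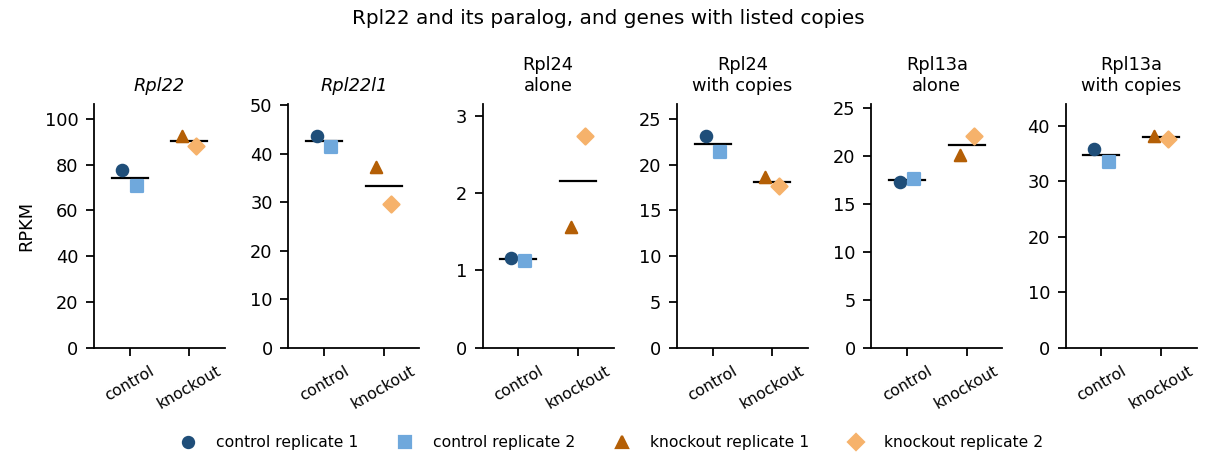
RPKM per library of Rpl22 and Rpl22l1, and of Rpl24 and Rpl13a alone and with the reads of their listed copies added, with a line at each group's mean and each axis starting at 0. Knockout lies above control for Rpl22 and for Rpl24 alone, and below control for Rpl22l1 and for Rpl24 with its copies, where the libraries read 23.2, 21.3, 18.6 and 17.6 RPKM.

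Rpl24 had the highest log2 fold change of the members, 0.53 (SE 0.29, adjusted p = 0.340 from limma), on the lowest level. It stood at 1.16 and 1.12 RPKM in control and at 1.56 and 2.74 RPKM in knockout, and its knockout replicates were 0.81 apart on the log2 scale. Without knockout replicate 2 the log2 fold change of Rpl24 was 0.26, beside a median of 0.12 over all tested genes. Without knockout replicate 1 it was 0.81, beside a median of 0.5. Of its coding bases, 83.4% are also annotated to another gene on the same strand, Gm28037, which is not in the table. Rpl24 (ENSMUSG00000098274, chr16:55966275-55971435, plus strand, mm10, GENCODE M21) also has 2 processed pseudogene copies in the table, Gm9385 (chr9:116040593-116041064, minus strand) and Gm12254 (chr11:58508791-58509261, minus strand). Gm9385 differs from the Rpl24 coding sequence at 1 of 471 bases. The substitution is C313T, counted from 1 at the first base of the start codon with the base of Rpl24 first, and lies in codon 105. Gm12254 differs at 5 of 466 aligned bases. Coding bases 283 to 342 show how alike the sequences are, with the differing base in capitals in Rpl24 and Gm9385.
Rpl24: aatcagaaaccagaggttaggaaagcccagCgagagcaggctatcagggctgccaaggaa
Gm9385: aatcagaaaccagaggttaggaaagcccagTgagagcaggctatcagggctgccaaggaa
Gm12254: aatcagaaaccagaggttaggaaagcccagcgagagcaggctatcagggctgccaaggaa

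The listed reads of these sequences were divided unequally. Gm9385 stood at 21.3 and 19.3 RPKM in control and at 15.3 and 13.3 RPKM in knockout, far above Rpl24 itself. The copies held 94.99% and 94.74% of the reads of Rpl24 and its copies in control and 91.6% and 84.5% in knockout. Summed with its copies, Rpl24 stood at 23.2 and 21.3 RPKM in control and at 18.6 and 17.6 RPKM in knockout, and the log2 fold change turned to -0.28 (SE 0.24, adjusted p = 0.466 from limma). How the authors' counting placed reads that match several genes is not stated in what was used here, and its part in the Rpl24 values was not tested.

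Rpl13a, which in human cells also takes part in silencing of inflammatory mRNAs, stood at 17.3 and 17.6 RPKM in control and at 20.05 and 22.1 RPKM in knockout, with both knockout libraries higher. Its log2 fold change was 0.26 (SE 0.24, adjusted p = 0.503 from limma), and it turned to -0.09 with TMM-type rescaling, -0.02 with quantile normalization and -0.11 with voom. Of its coding bases 90.3% are shared with Gm45713, a gene on the same strand that is not in the table. Its 3 listed copies held 51.9% and 47.5% of the reads in control and 47.6% and 41.3% in knockout, and with them the log2 fold change was 0.13 (SE 0.21).

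For most other members the copies held smaller shares. The table lists 231 processed pseudogenes with at least 90% identity over at least 50% of a member's coding sequence, for 40 members. Together they held 7.55% and 7.27% of the reads of members and copies in control and 7.16% and 6.67% in knockout. For 33 of the 40 members the share was under 20% in every library, and for 4, namely Rpl24, Rpl23a, Rpl13a and Rpl21, it was over 40% in both controls. The share was lowest in knockout replicate 2 for 33 of the 40. With copies added, 0 members and 4.31% of all tested genes were called, and the median of the members was -0.11.

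**Figure D5:**
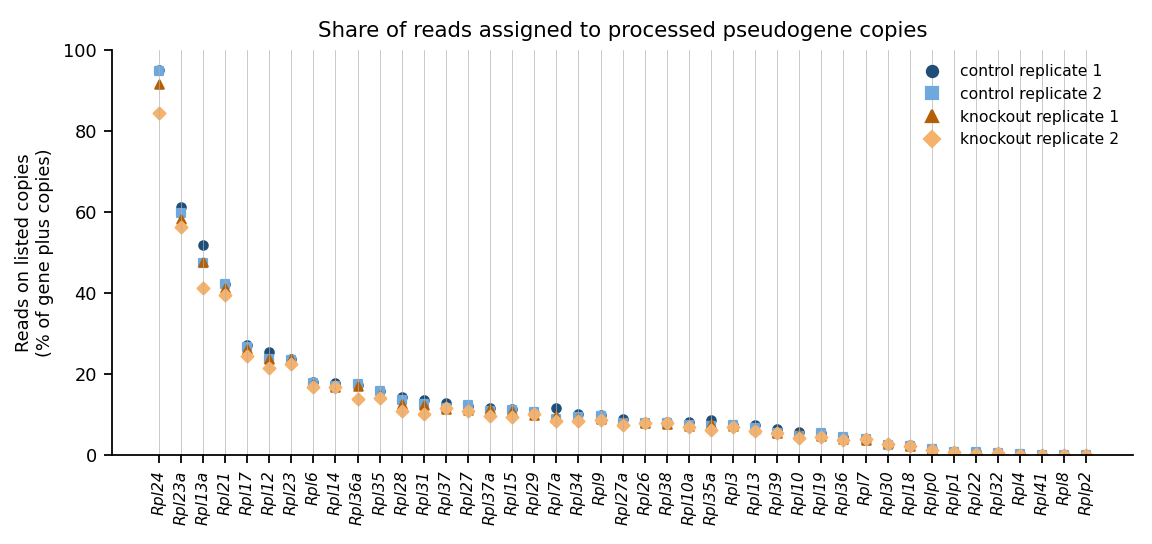
Percent of the reads of each gene plus its listed processed pseudogene copies that are assigned to the copies, with a point for each library and genes ordered by the mean. Rpl24 reaches 94.99%, and Rpl41, Rpl8 and Rplp2 have no listed copy.

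The 40S genes, which encode the proteins of the small subunit, gave similar values: 0 of 33 were called, and the median was -0.07, with quartiles of -0.13 and -0.03 and 29 negative values. Their median was 0.07 in knockout replicate 1 and -0.21 in knockout replicate 2. The most negative were Rps2, at 2694 and 2571 RPKM in control and 2384 and 2052 RPKM in knockout (-0.25, SE 0.17, adjusted p = 0.410 from limma), and Rps25 (-0.18). The most positive were Rps10 (0.15), which shares coding bases with another gene, and Rps12 (0.11). Of the 60S genes outside the set, Rpl5 and Rpl11, which bind MDM2 when not in a ribosome, had log2 fold changes of -0.21 and -0.13. The paralogs Rpl7l1 and Rpl36al had 0.03 (SE 0.18) and 0.34 (SE 0.34), and none of these 60S genes and paralogs was called. Rpl36al was low, at 2.9 and 2.84 RPKM in control and at 3.73 and 4.06 RPKM in knockout. Of its coding bases 95.3% are shared on the same strand, mainly with Gm49383, which is not in the table.

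Genes that act on the same process were not called either: 0 of 21 other TOP mRNAs (median 0.02), 0 of 13 regulators of TOP mRNA translation (0.37), 0 of 48 60S assembly factors (0.26), 0 of 6 importins of ribosomal proteins (0.30) and 0 of 4 factors known at ribosomal protein promoters (0.24). The unadjusted p from limma was under 0.05 for 2 of the 48 assembly factors, beside 1908 of all 11742 tested genes. They were Sbds, which releases eIF6 from the new subunit (0.45, SE 0.22, adjusted p = 0.290 from limma), and Bccip, needed for 60S assembly (0.41, adjusted p = 0.301 from limma). The smallest p-values of the other lists belonged to Snhg1 (0.34) and Btf3 (-0.17), Tsc1 (0.54) and Tsc2 (0.52), Ipo4 (0.56) and Ipo9 (0.38), and Sp1 (0.42) and Yy1 (0.36). Of the 48 assembly factors 46 were positive, beside a median of 0.31 over all tested genes.

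Facts of the whole libraries stand beside all of these values. Recovered reads numbered between 43198649 and 62853208 per library. Ddx21 stood at 11.0 and 12.1 RPKM in control and at 6.20 and 6.60 RPKM in knockout (log2 fold change -0.76, SE 0.30, adjusted p = 0.158 from limma), lower in both knockout libraries and not called, and its paralog Ddx50 had 0.38. Of the stem cell markers 13 of 14 were listed, and their summed level was 217 and 278 RPKM in control and 332 and 448 RPKM in knockout. The 11 neutrophil markers summed to 25997 and 26190 RPKM in control and 16482 and 10136 RPKM in knockout, and the 5 myeloid progenitor markers to 44969 and 47191 RPKM and to 33489 and 22203 RPKM. The 8 listed of 10 osteoblast and stroma markers summed to 450 and 262 RPKM in control and to 6338 and 1589 RPKM in knockout. The 6 listed of 7 erythroid markers summed to between 149 and 318 RPKM, and the 4 of 6 B cell markers to between 18.6 and 40.3 RPKM. Of the 6 T and NK cell markers only Nkg7 was listed, and Cd3d, Cd3e, Cd3g, Cd4 and Cd8a were not. Nkg7 stood at 1228 and 1324 RPKM in control and at 884 and 750 RPKM in knockout. No listed marker stood at the floor of 0.001 RPKM in any library. The part of these cells in the 60S values was not tested.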

How the data were processed

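RNA-seq values of 2 control and 2 knockout libraries were analysed. The deposited table holds RPKM values per gene, a unit identified here from the values, and the submitters' processing notes name the mm10 build. Aligner, counter and treatment of reads matching several genes: not given in the sources used here. Value times longest transcript length (GENCODE M21) gave whole reads, within 0.1, for 99.3% of judged values in each library. Between 43198649 and 62853208 reads were recovered per library. Genes without reads stand at 0.001.

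Members, lists and tests were chosen with earlier results of these data known. Log2(RPKM + 1) values of the 11742 genes averaging 1 RPKM or more were fitted in limma 3.58.1 (R 4.3.3), trend on, by genotype alone, leaving 2 residual degrees of freedom. The prior degrees of freedom were infinite, so each gene's spread was replaced by the trend. Alternatives were TMM-type rescaling, quantile normalization, voom on recovered reads, a pseudocount of 0.1, other filters on low values, no trend, a replicate block and each library left out. Copies were found with blastn 2.17.0+. Replicates of a group did not agree within sampling noise (chi-square per degree of freedom 48.5 and 150), so each library counted once. Values in every library were given for all stalk members, the 5 highest and 5 lowest log2 fold changes, the 4 smallest p-values, the 3 highest and 3 lowest levels, the 3 widest replicate gaps and the 2 most abundant genes of each other role, 22 genes in all. The other 21 are given by log2 fold change, range or count. Outside them, listed paralogs and other 60S genes (some are not reported here), 2 extremes in each direction of the 40S list and the 2 smallest p-values of other lists were named.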

Additional observations from a re-analysis of the deposited data

How the results depend on the processing

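Limits are 2 libraries per group, a spread taken from the trend over all genes, and an unknown treatment of reads that match several genes. With 1 library of a group left out, the lone library is assumed to vary like the other group. Leaving out Rpl24 and Rpl13a, adding copies and scaling to the members were chosen after seeing the data. Where a value moved, the cause was not tested.

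Over all genes 391 were called higher and 101 lower, and 0 and 0 after TMM-type rescaling or quantile normalization, 34 and 10 with voom, 188 and 90 among genes of at least 10 RPKM, and 373 and 52 without a trend. Leaving out control replicate 1 gave 37 and 5, control replicate 2 gave 27 and 9, knockout replicate 1 gave 6381 and 526, and knockout replicate 2 gave 96 and 13. The shared replicate numbers were not shown to pair the libraries (correlation of same-numbered deviations 0.067), and with a replicate block 175 and 64 were called, 0 of them members.

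On the deposited scale, members called higher numbered 0 to 1 and lower 0 to 4 with a library left out, with Rpl24 higher and Rpl3, Rpl4, Rpl7a and Rpl10 lower without knockout replicate 1. The 60S median was -0.45 with TMM-type rescaling, 0.07 with quantile normalization and -0.41 with voom. Its difference from the median of all genes (-0.40) was 0.05 with quantile normalization and ran from -0.73 to -0.08 with a library left out. The 40S median was -0.43, 0.09 and -0.41 in those 3 settings, with 0 to 5 genes called lower when a library was left out. The ratio of the 60S share, knockout to control (0.992), was 0.932 without the 20 most abundant genes, 2 of them members, and 0.931 as a share of reads. The level order had a rho of 0.86 with that per coding kilobase.

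In the order TMM-type rescaling, quantile normalization and voom, medians were -0.34, 0.05 and -0.31 for other TOP mRNAs, 0.04, 0.01 and 0.05 for TOP regulators, -0.08, 0.02 and -0.08 for assembly factors, -0.03, -0.05 and -0.03 for importins, and -0.05, 0.05 and -0.05 for promoter factors. TOP regulators of at least 10 RPKM, 3 genes, had 0.03. With a library left out the medians ran from -0.02 to 0.02, 0.20 to 0.55, 0.10 to 0.44, 0.00 to 0.56 and 0.15 to 0.49, and 0 to 1, 8, 25, 5 and 3 genes were called higher, with 0 to 2 other TOP mRNAs lower; the calls come without knockout replicate 1, where 54.3% of all tested genes were called higher and 4.48% lower.

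Of single members, quantile normalization turned Rplp0 to 0.29, Rplp1 to 0.25, Rplp2 to 0.16, Rpl34 to 0.16, Rpl4 to 0.16, Rpl36 to 0.12, Rpl19, Rpl41 and Rpl38 to 0.11, Rpl3 to 0.07, Rpl27 and Rpl23 to 0.06, Rpl32 to 0.04, Rpl39 to 0.03, Rpl10, Rpl36a and Rpl15 to 0.01 and Rpl13a to -0.02. TMM-type rescaling turned Rpl12 to -0.35, Rpl22 to -0.08 and Rpl13a to -0.09, and voom to -0.32, -0.05 and -0.11. With copies added Rpl12 was -0.03 and Rpl24 -0.28. With a library left out, Rplp0 ran from -0.29 to 0.00, Rplp1 from -0.19 to 0.12, Rplp2 from -0.19 to 0.17, Rpl12 from -0.12 to 0.13, Rpl24 from 0.26 to 0.81, Rpl34 from -0.11 to 0.10, Rpl10 from -0.40 to 0.05, Rpl39 from -0.30 to 0.11, Rpl19 from -0.19 to 0.10, Rpl15 from -0.24 to 0.01, Rpl27 from -0.25 to 0.04, Rpl36 from -0.09 to 0.00, Rpl23 from -0.23 to 0.11 and Rpl38 from -0.16 to 0.03.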

Other observations

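Annotated snoRNA genes lie inside 18 of the 43 genes, 35 in all, of which 16 are in the table and 13 were tested. Of these 2 were called higher and 1 lower by limma, against 4.19% of all tested genes. Snord35a, inside Rpl13a, stood at 2.38 and 1.41 RPKM in control and at 3.06 and 9.42 RPKM in knockout (log2 fold change 1.19, SE 0.34, adjusted p = 0.0149 from limma). Snord58b, inside Rpl17, stood at 2.43 and 1.44 RPKM in control and at 1.04 and 0.001 RPKM in knockout, lower in both knockout libraries (-1.02, SE 0.26, adjusted p = 0.00581 from limma). Gm23301, also inside Rpl17, stood at 0.824 and 0.487 RPKM in control and at 0.707 and 4.23 RPKM in knockout. Its groups overlapped (log2 fold change 0.86, SE 0.27, adjusted p = 0.0439 from limma). Gm23301 averaged 1 RPKM or more only through knockout replicate 2, and Snord58b was carried over that filter by its controls. For Snord35a, knockout replicate 2 at 9.42 RPKM lay far above knockout replicate 1 at 3.06 RPKM. The SEs of Snord35a, Snord58b and Gm23301 come from the trend and leave out the gaps between knockout replicates. None of these calls therefore shows a difference between groups. The snoRNA genes are short, their levels low, and the kit copies polyadenylated RNA.

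Of 214 tested copies of the 60S genes, 179 had a negative log2 fold change, with a median of -0.19 and quartiles of -0.30 and -0.07. Only Gm49594, a copy of Rpl15 with 99.8% identity, was called by limma, at 16.2 RPKM in both control libraries and at 8.63 and 5.44 RPKM in knockout (-1.13, SE 0.28, adjusted p = 0.00352), against 0.86% of all tested genes called lower.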
